A study of Mus musculus with 16 samples.

Results

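Genes of the intercalated disc, the junction that joins cardiomyocytes end to end, were examined for binding of the homeodomain transcription factors Meis1 and Hoxb13 in the mouse heart. The set has 10 genes, chosen by name from 21887 protein-coding genes on chromosomes 1 to 19, X and Y. It holds the connexin genes Gja1 and Gja5, the desmosomal genes Jup, Dsp, Pkp2, Dsg2 and Dsc2, the adherens junction genes Cdh2 and Ctnna3, and the scaffold gene Tjp1. A peak was assigned to a gene when it shared at least 1 bp with the gene body extended by 5 kb on either side. All positions are in mouse build mm10.

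Chromatin immunoprecipitation and sequencing (ChIP-seq), which reads the DNA recovered with an antibody, had been performed on heart ventricles at postnatal day 15. The Paro/Neo groups had received paromomycin and neomycin, aminoglycoside antibiotics, at 150 mg/kg by intraperitoneal injection 2 times a day for 7 days from postnatal day 7, and the vehicle groups had received PBS. Each of the 4 groups (Meis1 Paro/Neo, Meis1 vehicle, Hoxb13 Paro/Neo and Hoxb13 vehicle) has 2 libraries with a peak list each; the sources used here give no strain or sex. Whether a library is 1 heart or a pool of 2 hearts is not clear from the labels, so every p-value measures only the spread between libraries. The first antibody carries the label Meis1/2 and is called Meis1 below. The antibodies belong to separate sets of samples, so that antibody and set cannot be told apart. In the naming of the deposited Meis1 lists, the letter that goes with vehicle in replicate 1 goes with Paro/Neo in replicate 2, and the reverse. The labels were followed, and values are given by library.

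The intercalated disc combines gap junctions, built from connexins, which pass the electrical impulse, with desmosomes and adherens junctions, which carry mechanical force to the desmin filaments and to the sarcomeres. In the mouse heart these components gather at the cell ends during the weeks after birth, the period in which cardiomyocytes leave the cell cycle. Meis1 and Hoxb13 have been studied as factors that promote this exit. Heart ventricles also contain endothelial cells, fibroblasts and other cells, so a peak cannot be assigned to a cell type.

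The lists held 1541 and 1025 Meis1 peaks in Paro/Neo replicates 1 and 2, and 3529 and 3176 in vehicle replicates 1 and 2. For Hoxb13 they held 821 and 16963 in Paro/Neo and 5202 and 1121 in vehicle. Hoxb13 Paro/Neo replicate 2 thus stands apart by its length, and the results that rest on it are given with and without it. Sequencing depth is unknown, so the absence of a peak carries no detection limit. The fold enrichment of a peak over its local background and its −log10 q are the authors' deposited values, and ranks by fold are within a single list, with rank 1 the highest fold.

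Meis1 peaks lay at 6 of the 10 genes and Hoxb13 peaks at 8. Meis1 marked Dsp, Pkp2 and Cdh2 in all 4 of its libraries, Jup and Ctnna3 in both vehicle libraries alone, and Tjp1 in vehicle replicate 2 alone. Hoxb13 marked Gja1 and Jup in all 4 libraries, Dsp, Pkp2 and Tjp1 in Paro/Neo replicate 2 and vehicle replicate 1, and Cdh2, Ctnna3 and Dsc2 in Paro/Neo replicate 2 alone. Gja5 and Dsg2 held no peak in any of the 8 lists. Over all protein-coding genes, 11.8% held a Meis1 peak in at least 1 library, 6.47% in at least 2 and 1.87% in all 4; for Hoxb13 these shares were 47.6%, 23.6% and 2.83%. At 3 genes of the set for Meis1 and 1 for Hoxb13, a single merged region with peaks of all 4 libraries reached the gene or its 5 kb flanks, as it did at 1.75% and 2.84% of all protein-coding genes. The count of 8 genes with a Hoxb13 peak thus stands beside a high background, set largely by Paro/Neo replicate 2.

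**Figure D1:**
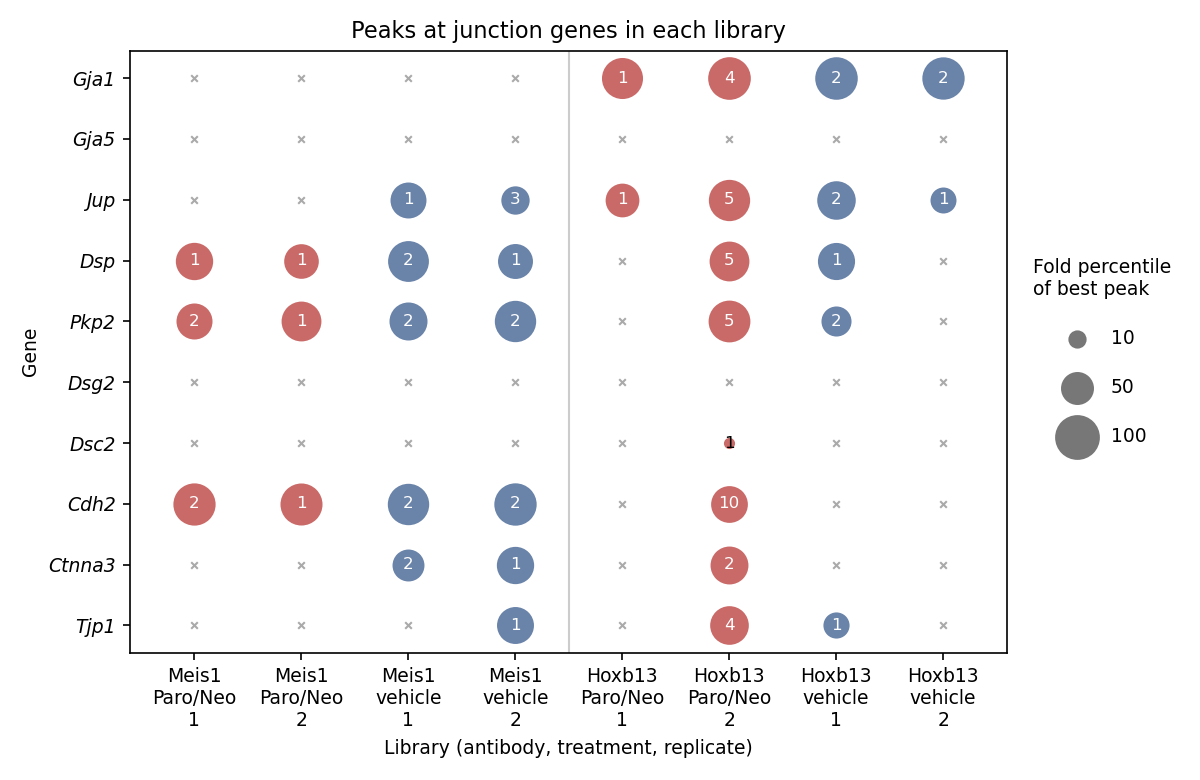
Peaks at each of the 10 genes (rows) in each of the 8 libraries (columns). A circle marks a gene with at least 1 peak, the number in it counts the peaks, its area grows with the fold percentile of the strongest peak within that list, and a grey cross marks no peak; Dsp, Pkp2 and Cdh2 are filled in all 4 Meis1 columns, and Gja1 and Jup in all 4 Hoxb13 columns.

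Meis1 peaks were more frequent at longer genes, and the genes of the set differ widely in length. Gja1 spans 13.1 kb and Ctnna3 1570 kb. Among the 7280 protein-coding genes whose window of gene and flanks measures 30 to 100 kb, 1.99% held a Meis1 peak in all 4 libraries; of the 6 genes of the set in that class, Dsp and Pkp2 did. Among the 2759 genes with windows over 100 kb the share was 6.85%, and of the 3 genes of the set, Cdh2 did. For windows under 30 kb the share was 0.633%, and the 1 gene of the set, Gja1, held none. For Hoxb13 in all 4 libraries the shares were 2.74%, 2.95% and 2.90% from the shortest to the longest class, with Gja1 in the shortest and Jup among the 6 of the middle class.

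Cdh2 encodes N-cadherin, the classical cadherin of the adherens junction and the gene of the set with the strongest Meis1 peaks. Its main region, chr18:16715519-16715911, lies within the gene, 93.3 kb from the nearest gene end. Fold enrichment there was 9.91 and 9.56 in Paro/Neo replicates 1 and 2, against 8.61 and 11.9 in vehicle replicates 1 and 2. These peaks ranked 36 of 1541 and 34 of 1025 in the Paro/Neo lists, against 223 of 3529 and 55 of 3176 in the vehicle lists. The fold values of the treatments overlap. Peak widths in the region ran from 254 to 365 bp, and the starts of the 4 peaks lay within 101 bp of each other. A second region (chr18:16690809-16691035) was called in Paro/Neo replicate 1 and vehicle replicate 2, and another (chr18:16740860-16741094) in vehicle replicate 1 alone, at rank 2713 of 3529.

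Pkp2 encodes plakophilin 2, an armadillo-repeat protein that links desmosomal cadherins to desmoplakin and whose human gene is a known locus of arrhythmogenic cardiomyopathy. It carried a Meis1 region within the gene at chr16:16256674-16257043, 15.7 kb from the nearest gene end. Fold enrichment was 5.62 and 6.98 in Paro/Neo, against 6.08 and 8.66 in vehicle, and the groups overlap. The ranks were 467 of 1541 and 140 of 1025 in Paro/Neo, against 770 of 3529 and 206 of 3176 in vehicle. Near the other end of the gene, 6.58 kb inside it, a second region (chr16:16219927-16220202) was called in Paro/Neo replicate 1 and in both vehicle libraries. Fold enrichment there was 5.32 in Paro/Neo replicate 1, against 4.66 and 4.53 in vehicle.

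Dsp encodes desmoplakin, which anchors desmosomes to the desmin filaments. Its Meis1 region, chr13:38148349-38148684, lies upstream, 2.61 kb before the annotated 5′ end of the gene. Fold enrichment was 5.93 and 5.55 in Paro/Neo, against 7.82 and 5.34 in vehicle, at ranks 381 of 1541 and 369 of 1025 in Paro/Neo and 321 of 3529 and 1101 of 3176 in vehicle. The vehicle values lie on both sides of the Paro/Neo values. The region is outside the gene, so with no flank Dsp would be counted from a peak at chr13:38162735-38162975 in vehicle replicate 1 alone.

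**Figure D2:**
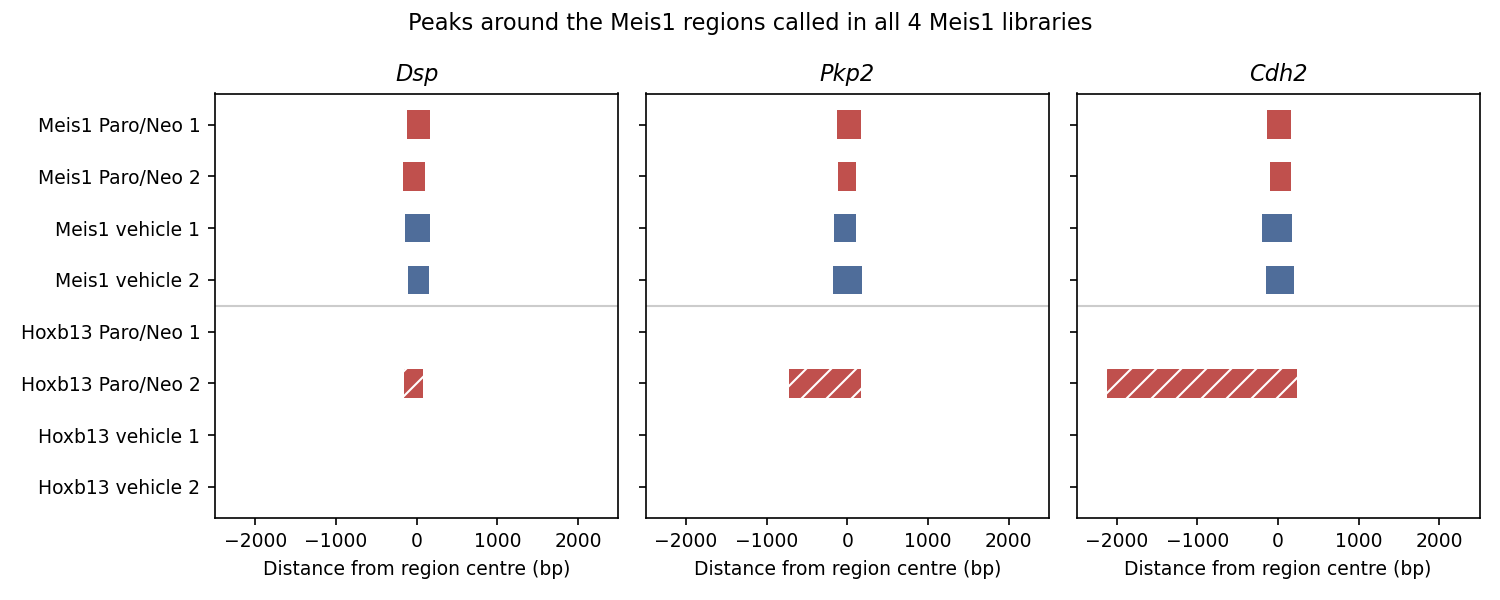
Peaks within 2500 bp of the centre of the Meis1 regions at Dsp, Pkp2 and Cdh2 that all 4 Meis1 libraries called; each bar is a peak (red for Paro/Neo, blue for vehicle, hatched for Hoxb13) and the horizontal axis is the distance from the centre in bp. The Meis1 peaks of the 4 libraries overlap one another at each gene, and the Hoxb13 peaks there come from Paro/Neo replicate 2 alone.

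Jup encodes plakoglobin, an armadillo-repeat protein of desmosomes and adherens junctions, and it differed from the genes above in its Meis1 calls. Meis1 peaks numbered 0 and 0 in Paro/Neo, against 1 and 3 in vehicle. The region shared by the vehicle libraries, chr11:100390242-100390508, lies within the gene, 7.33 kb from the 5′ end, with folds of 5.49 (rank 1078 of 3529) and 4.32 (rank 2115 of 3176). Vehicle replicate 2 held a second peak within the gene (chr11:100388031-100388272) and a further one across its 5′ end, chr11:100397787-100398074, which was weak in that list (fold 3.74, rank 2759 of 3176). With each list reduced to its strongest 1025 peaks, Jup held a Meis1 peak in 0 libraries, so its call in vehicle alone was lost.

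Ctnna3 encodes αT-catenin, a catenin of heart and testis that binds plakophilin 2, and it was likewise marked in vehicle alone. Its peaks numbered 0 and 0 in Paro/Neo, against 2 and 1 in vehicle. The shared region (chr10:63480055-63480383) lies 50.0 kb inside the 5′ end, with folds of 4.83 and 5.89 in vehicle replicates 1 and 2. In lists reduced to 1025 peaks, Ctnna3 held a peak in 1 library, vehicle replicate 2. The further peak of vehicle replicate 1 (chr10:64076114-64076303) also lies in Lrrtm3, a gene nested in Ctnna3, and cannot be assigned to either. Tjp1 encodes ZO-1, a scaffold protein that binds connexin43 at the rim of gap junctions. Its only Meis1 peak was in vehicle replicate 2 (chr7:65461403-65461697, fold 5.78, rank 838 of 3176), within the gene.

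Meis1 peaks were found at 3 and 3 of the 10 genes in the Paro/Neo lists, against 5 and 6 in the vehicle lists. The mean was 3 ± 0 genes in Paro/Neo and 5.5 ± 0.71 in vehicle (SD, n = 2 each), a difference of −2.5. The groups do not overlap, but the exact two-sided permutation test over 6 orders of the libraries gave p = 0.333, the smallest it can give here (adjusted p = 1 over 4 tests). Of all protein-coding genes, 4.07% and 2.83% held a Meis1 peak in the Paro/Neo lists, against 8.59% and 8.21% in the vehicle lists. When each list was reduced to its strongest 1025 peaks, the difference was −0.5, with 3 and 3 genes in Paro/Neo against 3 and 4 in vehicle. With replicate 1 of each treatment alone, a choice made after seeing the data, it was 3 genes in Paro/Neo against 5 in vehicle.

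Set against list length, the difference between treatments was small. The genes held 3.24 and 2.93 of each 1000 Meis1 peaks in the Paro/Neo lists, against 2.55 and 3.15 in the vehicle lists, and the groups overlap. The means were 3.09 ± 0.22 in Paro/Neo and 2.85 ± 0.42 in vehicle (SD, n = 2 each; exact two-sided permutation p = 0.667, adjusted p = 1), a difference of 0.24 that was −0.063 without vehicle replicate 1. Single lists give a wide interval here. In Paro/Neo replicate 2, with 3 such peaks, the exact 95% binomial interval ran from 0.604 to 8.53 per 1000, counting error only.

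Of the 5 genes with a Meis1 peak in both vehicle lists, Dsp, Pkp2 and Cdh2 also had one in both Paro/Neo lists, and Jup and Ctnna3 had one in neither. Among all 1233 protein-coding genes with a peak in both vehicle lists, 33.2% also had one in both Paro/Neo lists, 29.9% in 1 and 36.9% in neither. With 5 genes, the split of the set was not tested against these shares. A peak in both vehicle lists and in neither Paro/Neo list was found at 2.08% of all protein-coding genes, and the reverse at 0.0183%; no gene of the set showed the reverse. More vehicle than Paro/Neo lists held a peak at Jup, Ctnna3 and Tjp1 and at 8.48% of all protein-coding genes, and more Paro/Neo than vehicle lists at no gene of the set and at 0.640% of all.

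**Figure D3:**
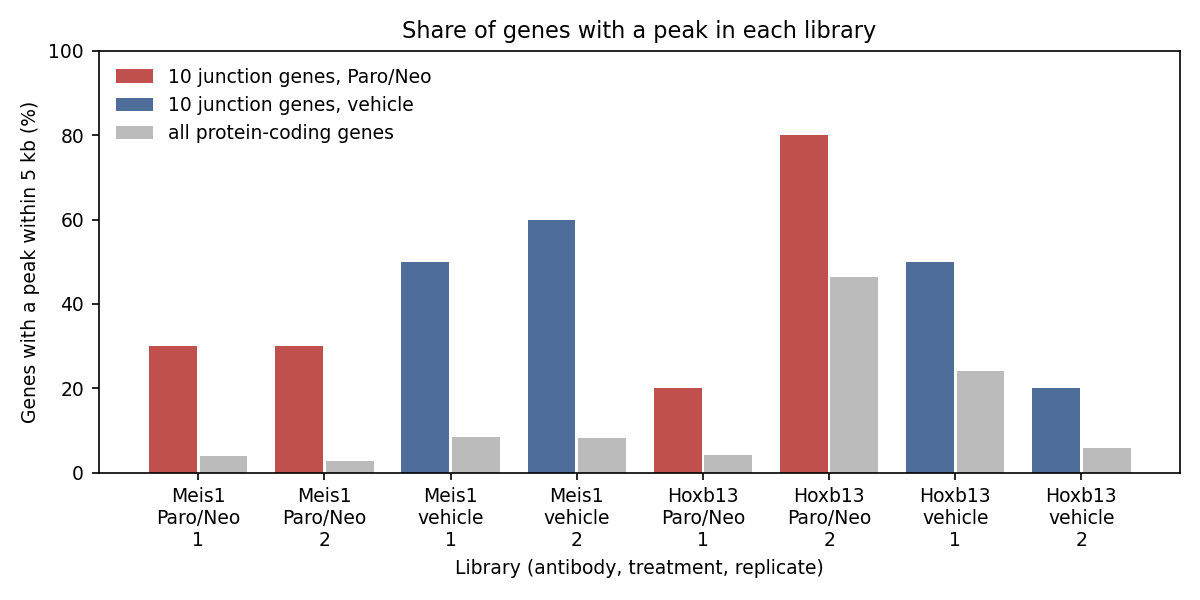
Percentage of genes with at least 1 peak within 5 kb in each library, for the 10 genes of the set (red for Paro/Neo, blue for vehicle) and for all protein-coding genes (grey). The 10 genes stand above the grey bars in all 8 libraries, and no error bar is drawn since each bar is 1 library. The grey bars cover genes of every length and are not matched to the gene lengths of the set.

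Gja5 and Dsg2, which held no peak within 5 kb, had Meis1 peaks just beyond it. Gja5 encodes connexin40, the connexin of the atria, of the ventricular conduction system and of arterial endothelium. A Meis1 region at chr3:97062843-97063295 was called in all 4 libraries, 9.21 to 9.26 kb past the 3′ end of Gja5 and near the annotated transcript 4930573H18Rik. Fold enrichment there was 5.44 and 8.92 in Paro/Neo, against 14.3 and 14.1 in vehicle, and the groups do not overlap. The peaks ranked 526 of 1541 and 43 of 1025 in the Paro/Neo lists, against 22 of 3529 and 19 of 3176 in the vehicle lists. These folds come from lists called separately and were not tested. No Meis1 fold inside a 5 kb limit of the set reached the vehicle values of this region. At Dsg2, which encodes desmoglein 2, a desmosomal cadherin, Meis1 peaks of both vehicle lists lay 5.03 and 5.02 kb outside the gene (folds 6.56 and 4.94), and neither Paro/Neo list had a peak within 20 kb. Just inside the limit lay Hoxb13 peaks of Paro/Neo replicate 2, 4.71 kb from Cdh2 and 4.04 kb from Tjp1.

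**Figure D4:**
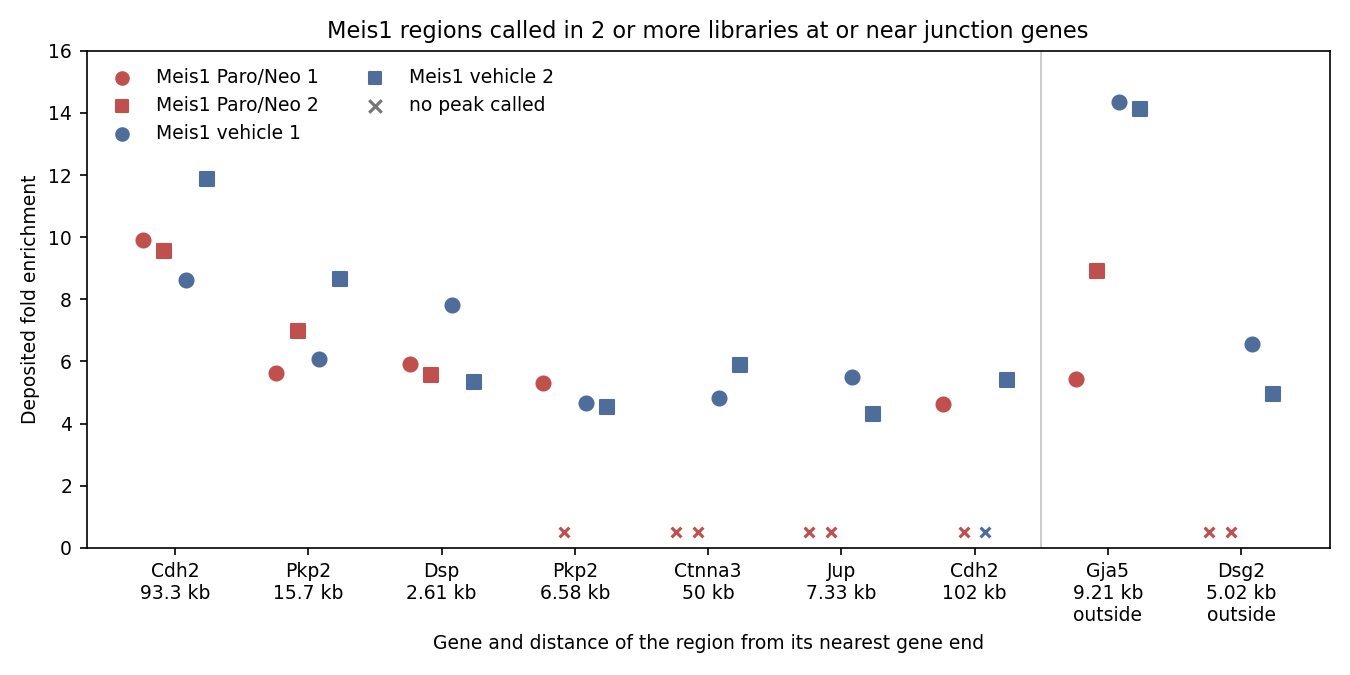
Deposited fold enrichment (vertical axis) of the Meis1 regions called in at least 2 libraries at genes of the set, and, right of the grey line, of the regions outside the 5 kb limit at Gja5 and Dsg2; the distance under each name is that to the nearest gene end. Red is Paro/Neo and blue vehicle, circles are replicate 1, squares replicate 2 and crosses libraries without a peak; the highest values are the vehicle values of 14.3 and 14.1 near Gja5.

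Gja1 encodes connexin43, the main gap junction protein of the ventricle, and had the widest Hoxb13 peaks of the set, while its nearest Meis1 peak lay 226 to 590 kb away, by library. Its strongest Hoxb13 peak was 2221 and 8226 bp wide in Paro/Neo replicates 1 and 2, against 6649 and 2686 bp in vehicle replicates 1 and 2. These widths rose in the order of list length, from 821 to 16963 peaks, and a difference in width between treatments was not tested. Fold enrichment was 4.76 and 7.15 in Paro/Neo, against 6.61 and 6.29 in vehicle, and the groups overlap. The peaks ranked 66 of 821 and 35 of 16963 in Paro/Neo, against 40 of 5202 and 21 of 1121 in vehicle. Merged over the libraries, the region spans chr10:56385312-56393537 and covers the 3′ end of the gene. The peaks of Paro/Neo replicate 2 and vehicle replicate 1 began 5.11 and 3.70 kb before that end, while the Paro/Neo replicate 1 peak began 0.848 kb past it. All 4 strongest peaks stopped 2.52 to 3.12 kb past the end. Peaks of 3 kb or more made up 3.05% and 2.07% of the Paro/Neo lists, against 1.42% and 3.03% of the vehicle lists. Exons were not assigned, since the gene table used gives gene ends only.

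**Figure D5:**
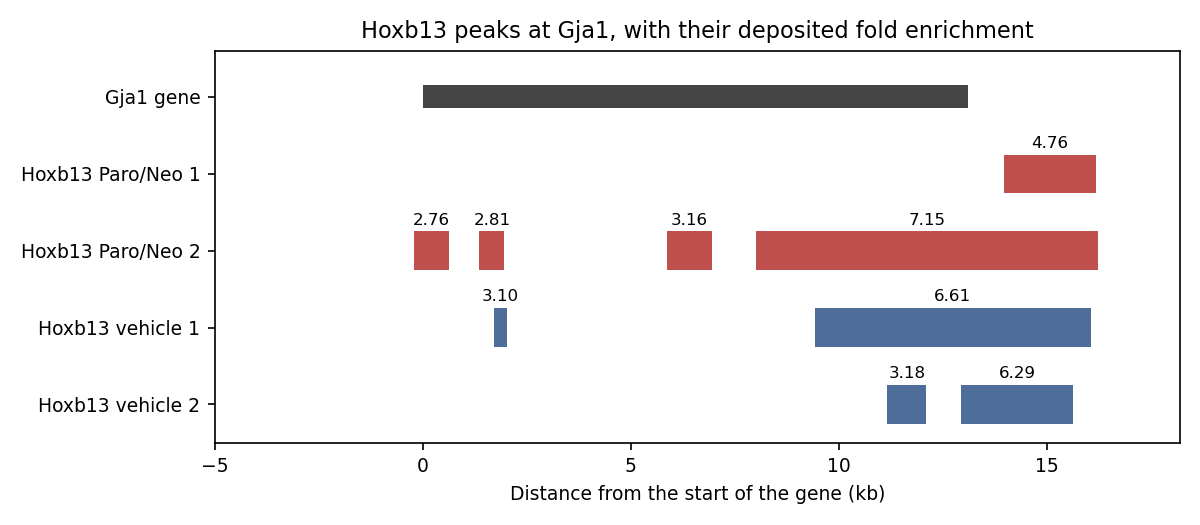
Hoxb13 peaks along Gja1 in the 4 Hoxb13 libraries (red for Paro/Neo, blue for vehicle), with the gene in dark grey and the distance from its start in kb on the horizontal axis; the number over each peak is its deposited fold enrichment. The widest peaks, 8226 and 6649 bp, cross the 3′ end of the gene, and the strongest peak of each library stops 2.52 to 3.12 kb past it.

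Jup was the other gene with Hoxb13 peaks in all 4 libraries, but no single region there was called in all 4. The call in all 4 was lost in lists reduced to their strongest 821 peaks, with a peak in 2 libraries, and at a −log10 q of at least 2, with a peak in 3, whereas Gja1 held a peak in all 4 under both. A region within the gene (chr11:100387385-100391561) was called in Paro/Neo replicate 2 and both vehicle libraries, with folds of 3.60 in Paro/Neo replicate 2 against 3.73 and 3.27 in vehicle. It was 4177 bp wide in Paro/Neo replicate 2, the longest list, against 355 and 341 bp in vehicle, and Paro/Neo replicate 1 had no peak there. The median peak width over the whole list was 348 and 495 bp in Paro/Neo, against 412 and 394 bp in vehicle. A region 1.21 kb inside the 5′ end (chr11:100395008-100396630) was called in both Paro/Neo libraries and in neither vehicle library, with folds of 3.66 (rank 324 of 821) and 4.07 (rank 1147 of 16963). Regions of this kind are rare in the lists, at 0.181% of 17634 merged Hoxb13 regions, and it was 1 of 37 at the set. The call in both Paro/Neo libraries rests on replicate 2, where rank 1147 lies outside the strongest 821 peaks. Without that list, a 176 bp peak of Paro/Neo replicate 1 (−log10 q 2.29) is left.

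Hoxb13 peaks at the other genes rested on the long lists. Dsp, Pkp2 and Tjp1 held 5, 5 and 4 peaks in Paro/Neo replicate 2 and 1, 2 and 1 in vehicle replicate 1, and none in the shorter lists. Cdh2 held 10 peaks in Paro/Neo replicate 2 alone, with folds from 2.87 to 3.39, and Ctnna3 held 2. Dsc2, which encodes the desmosomal cadherin desmocollin 2, held a single weak peak there (chr18:20058867-20059132, fold 2.55, rank 16600 of 16963). Of the 37 Hoxb13 regions at the set, 28 were called in Paro/Neo replicate 2 alone, as were 71.1% of all Hoxb13 regions.

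The difference between treatments in Hoxb13 calls was smaller than the spread between replicates. Hoxb13 peaks lay at 2 and 8 of the 10 genes in Paro/Neo, against 5 and 2 in vehicle, where 4.20% and 46.5% of all protein-coding genes held one in Paro/Neo, against 24.2% and 5.79% in vehicle. The means were 5 ± 4.2 genes in Paro/Neo and 3.5 ± 2.1 in vehicle (SD, n = 2 each; exact two-sided permutation p = 1, adjusted p = 1). The difference of 1.5 genes turned to −1.5 without Paro/Neo replicate 2. It was 0.5 in lists of equal length, with 2 and 2 genes in Paro/Neo against 1 and 2 in vehicle, and 2.5 at a −log10 q of at least 2. It was 0 without vehicle replicate 2, 3 without vehicle replicate 1 and 4.5 without Paro/Neo replicate 1. Per 1000 peaks the genes held 2.44 and 2.12 in Paro/Neo, against 1.54 and 2.68 in vehicle. The means were 2.28 ± 0.22 in Paro/Neo and 2.11 ± 0.80 in vehicle (SD, n = 2 each; exact two-sided permutation p = 1, adjusted p = 1), and the difference of 0.17 was −0.397 without vehicle replicate 1. More libraries of Paro/Neo than of vehicle held a peak at 24.3% of all protein-coding genes and at 3 genes of the set, Cdh2, Ctnna3 and Dsc2. The reverse held at 3.76% of all and at none of the set. A Hoxb13 peak in both Paro/Neo and neither vehicle library was found at 0.132% of all protein-coding genes, and in both vehicle and neither Paro/Neo library at 0.00457%, in each case at no gene of the set.

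Most Meis1 regions at these genes also lay under a Hoxb13 peak of the longest list. Of the 13 Meis1 regions at the set, 10 overlapped a peak of Hoxb13 Paro/Neo replicate 2, and of these 1 also overlapped a peak of vehicle replicate 1. The 3 others were both regions of Ctnna3 and the region of Tjp1. Among the 3079 Meis1 regions within 5 kb of a protein-coding gene, 34.4% overlapped a peak of that Hoxb13 list, and 9.84% a peak of vehicle replicate 1. Of the Meis1 regions called in all 4 libraries, the overlap with Paro/Neo replicate 2 was 44.3% over the genome, and at the set it held for all 3 (Dsp, Pkp2 and Cdh2). Regions of 1 gene are neighbours and not independent, and the difference from the background was not tested. The peaks coincided closely upstream of Dsp, where the Hoxb13 peak (chr13:38148357-38148600) lies within the merged Meis1 region. Without Paro/Neo replicate 2, the overlap at the set was the region at the 5′ end of Jup.

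That region at the 5′ end of Jup was the 1 promoter of the set with peaks of both antibodies, and it is shown with those of Gja1 and Tjp1, which a Hoxb13 peak covered in part. Sequences of the 250 bases before an annotated start were taken from RefSeq (GRCm38.p6, the coordinates of mm10), which matched 6 of the 10 genes with 8 promoters, and are written 5′ to 3′ on the strand of the gene. Capitals mark a match to TGACAG, the core letters of the Meis1 motif, on either strand; the windows of Gja1 and Tjp1 hold none. The windows are chr11:100397791-100398040 on the minus strand for Jup, chr10:56377050-56377299 on the plus strand for Gja1 and chr7:65371245-65371494 on the minus strand for Tjp1. The windows of Jup and Gja1 lie at the 5′ end of the gene, and that of Tjp1 lies at an internal start, within the gene.
Jup: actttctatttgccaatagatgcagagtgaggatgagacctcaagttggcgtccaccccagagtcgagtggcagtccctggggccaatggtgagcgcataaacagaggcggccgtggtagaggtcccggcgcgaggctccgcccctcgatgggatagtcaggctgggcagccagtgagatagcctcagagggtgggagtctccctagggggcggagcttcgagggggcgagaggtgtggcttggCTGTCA
Gja1: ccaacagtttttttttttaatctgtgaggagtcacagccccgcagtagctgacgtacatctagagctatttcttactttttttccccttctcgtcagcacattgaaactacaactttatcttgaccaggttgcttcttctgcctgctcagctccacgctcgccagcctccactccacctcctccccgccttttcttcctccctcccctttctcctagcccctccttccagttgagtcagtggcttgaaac
Tjp1: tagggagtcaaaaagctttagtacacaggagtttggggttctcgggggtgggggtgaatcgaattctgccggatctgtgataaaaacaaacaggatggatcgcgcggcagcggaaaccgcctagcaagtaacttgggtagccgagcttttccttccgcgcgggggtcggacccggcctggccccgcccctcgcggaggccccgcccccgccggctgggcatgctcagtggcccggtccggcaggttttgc

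The Meis1 peak of vehicle replicate 2 covered all 250 bases at Jup, as did the Hoxb13 peak of Paro/Neo replicate 2, and the Hoxb13 peak of vehicle replicate 1 covered 37. The letters CTGTCA, the reverse complement of TGACAG, are the last 6 bases before the Jup start. Hoxb13 peaks of Paro/Neo replicate 2 covered 209 bases at Gja1 and 208 at Tjp1. TGACAG occurred in 2 of the 8 promoters of the set, that of Jup and an internal promoter of Ctnna3 with no peak. It occurred in 15.9% of all 32851 promoters. CAATAAA, the core letters of the Hoxb13 motif, and TGATTTA, the first letters of a Meis-Hox composite motif, occurred in none of the 8, against 4.20% and 2.61% of all promoters. A match is a description of letters and not a site of binding.

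Other junction genes gave a wider view, and their counts are given with the shares of all protein-coding genes. In at least 1 library, 11.8% of all protein-coding genes held a Meis1 peak and 47.6% a Hoxb13 peak. In all 4 libraries of an antibody, 1.87% held a Meis1 peak and 2.83% a Hoxb13 peak. Of 20 further genes of the heart's cell junctions, those that Meis1 marked in all 4 libraries include Gjd3, a connexin gene, and Nrap, which encodes an actin-anchoring protein of the disc, with mean fold percentiles of their best peaks of 74.5 and 79.5. Meis1 peaks lay at 3 and 3 of these 20 in Paro/Neo, against 7 and 6 in vehicle. Of all protein-coding genes, 4.07% and 2.83% held one in these Paro/Neo lists, against 8.59% and 8.21% in vehicle. Hoxb13 marked Xirp1, Tmem65 and Nectin2 in all 4 libraries, at mean percentiles of 61.5, 63.1 and 93.3, and Ctnnb1, which encodes β-catenin, in 3. Xirp1 encodes an actin-binding protein of the disc, Tmem65 a membrane protein linked to connexin43, and Nectin2 an adhesion molecule. Hoxb13 peaks lay at 4 and 20 of the 20 in Paro/Neo, against 12 and 3 in vehicle. The shares of all protein-coding genes were 4.20% and 46.5% in Paro/Neo, against 24.2% and 5.79% in vehicle. Of 13 relatives that serve epithelia, among them Dsg3, Dsc3, Pkp1 and Cdh1, none held a Meis1 peak. With 13 genes, this list is too short to stand apart from the 11.8% over all protein-coding genes. Evpl held the only Hoxb13 peak among these relatives, in Paro/Neo replicate 2. Of 6 endothelial junction genes, Pecam1 was marked by Meis1 in all 4 libraries (mean percentile 88.3), and the other 5 in none.

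Across the 8 libraries, Dsp, Pkp2 and Jup had peaks in 6 each. Pkp2 had the highest mean percentile of these, and 113 genes outside the set had peaks in the same 6 libraries. By the smallest summed difference in the percentile of the best peak, the 3 most like Pkp2 were Cacnb2, Kcnj5 and Stk39, which differed from it by 7.2, 7.5 and 8.3 percentile points per library on average.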

How the data were processed

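Peak lists of 8 ChIP-seq libraries were used; the 8 inputs are not analysed here. The submitters' processing notes name build mm10, the peak caller MACS2, the aligner Bowtie2, HOMER, Picard 1.127 and FastQC 0.11.5. Their options, filters and control are not stated there. Lists are in the broadPeak layout, 1 per library, so replicates were not pooled. Each deposited peak carries a fold ratio over local background, a −log10 p-value, a −log10 q-value (at least 1.00 in every list) and a score, which was not used. Depth is unknown.

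Chromosomes 1 to 19, X and Y were kept. Gene ends came from a RefSeq table of GRCm38.p6, which gives no exons. Peaks of an antibody sharing 1 bp were merged into regions. Treatments were compared within an antibody by exact permutation of library values, adjusted by Benjamini-Hochberg over 4 tests. The code was tested on simulated data. Exact binomial (Clopper-Pearson) 95% intervals cover counting error only. All 10 genes are named whatever their values, and genes of other lists with a peak in at least 3 libraries of an antibody; 1 such gene is not reported here. Genes, lists and tests were chosen with earlier results of these data known. Python 3.11.15, pandas 2.3.3 and SciPy 1.17.1 were used.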

Additional observations from a re-analysis of the deposited data

How the results depend on the processing

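The difference in genes with a Meis1 peak stayed below 0 under every alternative tried (no flank, 20 kb flanks, a −log10 q of at least 2, 50% of the peak inside the window, lists of equal length, and each library left out in turn). It ran from −3 to −2 when single libraries were left out, was −3.5 with 20 kb flanks and shrank to −0.5 with lists of equal length. The other alternatives kept the lists at unequal length. The Hoxb13 difference ran from −1.5 (without Paro/Neo replicate 2) to 4.5 when single libraries were left out. Peaks per 1000 turned with no flank, to −0.277 for Meis1 and −0.392 for Hoxb13. They ran from −0.0629 to 0.535 for Meis1 and from −0.397 to 0.741 for Hoxb13 when single libraries were left out; the causes were not tested. With the label's number as a replicate block the differences were the same (−2.5, 1.5, 0.236 and 0.172) and the exact sign-flip p was 0.5 for the Meis1 gene count, the smallest that 2 numbers can give. Whether the numbers pair the samples cannot be told from 2 of them. With 20 kb flanks Gja5 and Dsg2 gained Meis1 peaks in 4 and 2 libraries. With a −log10 q of at least 2 the Hoxb13 difference per 1000 was 1.75. With replicate 1 alone, a choice made after seeing the data, the Meis1 difference per 1000 was 0.694. Lists of equal length lowered 9 of the 20 counts of libraries per gene and antibody by over 1.5 times or to 0. Those that fell to 0 were Meis1 at Jup and Hoxb13 at Dsp, Dsc2, Cdh2, Ctnna3 and Tjp1. No depth is given, so a lost peak cannot be told apart from a shallower library.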

Other observations

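Marker genes of the cell types in a heart were examined for peaks, without a test between types. All 6 cardiomyocyte genes (Myh6, Tnnt2, Actc1, Ryr2, Myl2 and Tnni3) held a Hoxb13 peak in each of the 4 Hoxb13 libraries, where 2.83% of all protein-coding genes did. Meis1 peaks were held by Tnnt2 and Myl2 in all 4 Meis1 libraries, by Ryr2 in 3, by Myh6 in 2, and by Actc1 and Tnni3 in none. Of 6 endothelial genes, Pecam1 and Tek held Meis1 peaks in all 4 libraries, and Cdh5, Kdr, Egfl7 and Tie1 held none. Egfl7 held Hoxb13 peaks in all 4 libraries, and the other endothelial genes in 1 or 2. Of 5 smooth muscle and pericyte genes, Abcc9 held Meis1 peaks in all 4, and Myh11, Tagln, Pdgfrb and Rgs5 held none. A Meis1 peak in all 4 libraries was found at 1.87% of all protein-coding genes. None of 6 fibroblast and none of 5 leukocyte genes held a Meis1 peak, where 11.8% of all protein-coding genes had one in at least 1 library, so these lists are too short to stand apart from that share. Hoxb13 peaks lay at 0 and 6 of the 6 fibroblast genes in Paro/Neo replicates 1 and 2, against 2 and 0 in vehicle replicates 1 and 2. The shares of all protein-coding genes were 4.20% and 46.5% in Paro/Neo, against 24.2% and 5.79% in vehicle. In Paro/Neo replicate 2, all 6 endothelial and all 5 smooth muscle and pericyte genes also held one, and 1 of the 5 leukocyte genes. Of the leukocyte genes, Cd68 held a Hoxb13 peak in 3 libraries and the others held none. A Hoxb13 peak in at least 2 libraries was found at 23.6% of all protein-coding genes. Peaks at a marker do not measure how many cells of a type are present.

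The letters TGACAG were found in 41.3% of the 462 promoters of the table that a merged Meis1 region overlaps, against 12.5% of the 7605 that a Hoxb13 region overlaps. CAATAAA was found in 2.38% and 2.05% of these promoters. These shares cover all genes and were not tested; base composition was not matched between the promoter sets.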
